A study of Mus musculus with 24 samples.

Results

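Oocytes labelled as in vitro controls (con-in vitro) were compared with the other control oocytes of the study (con), neither of them exposed to microplastics by their labels. The comparison took its members from the column names of the deposited count table: 2 con-in vitro libraries and 2 con libraries, 4 of the 12 RNA columns and of 24 samples in all. The remaining RNA columns hold oocytes exposed to polystyrene microplastics (PSMPs) in vivo or in vitro, oocytes treated with the histone deacetylase inhibitor SAHA, and exposed oocytes overexpressing Hdac3. All groups were mouse oocytes by their labels, with 5 cells per reaction according to the series' design text, which calls them embryos. The labels give no genotype, strain, age, culture time, medium or meiotic stage for either control, no batch or processing date for any library, and no statement that replicates came from separate animals. The p-values below therefore measure the spread between these libraries, which may be technical.

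A mammalian oocyte waits in prophase of the first meiotic division, in the germinal vesicle stage, under high cyclic AMP. When that signal falls, cyclin B with Cdk1 drives nuclear envelope breakdown, the anaphase-promoting complex removes securin and cyclin B, and the Mos and MAP kinase pathway then holds the egg at metaphase of the second division. Transcription is largely silent during these steps, so that the stored maternal mRNAs are masked, recruited by cytoplasmic polyadenylation, or removed by deadenylation in which Btg4 brings the CCR4-NOT complex to its targets.

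Depth was 30.7 M and 35.6 M counts in con, against 6.22 M and 6.40 M in con-in vitro. At these depths the floor of 3 counts stood at 0.104 and 0.0773 CPM (counts relative to library size) in con and at 0.890 and 0.820 CPM in con-in vitro, and floors and intervals given below cover counting error only. All CPM are scaled by TMM factors, which were 0.937 and 1.09 in con, against 0.542 and 0.572 in con-in vitro. Replicates correlated over genes at 0.856 in con and 0.881 in con-in vitro, and libraries of different groups at 0.696 to 0.742. The 4 control libraries held 11640 to 12843 genes with at least 1 count and the 7 other libraries 17559 to 20957, so both controls stood apart from the other groups. Expected at the depth of the shallowest control library, the numbers were 11293 and 11706 genes in con, against 11832 and 11622 in con-in vitro. In libraries from pooled cells, fewer cells carrying a transcript and less RNA per cell cannot be told apart.

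The oocyte label was checked against 12 marker genes, of which 11 had counts in all 4 libraries. Figla, an oocyte transcription factor, was the exception with 0.0695 and 9.3 CPM in con against 5.93 and 0 CPM in con-in vitro. Presence is all that this check covers, since levels differed. Of the 12 markers 0 were called higher in con-in vitro and 4 lower, beside 14.7% and 10.5% of all genes tested. The 4 were Gdf9, Mos, Oosp1 and the germ cell gene Ddx4 (log2 -1.59 with adjusted p = 0.0197). Of the 26 cumulus and granulosa cell markers 17 were tested, and 12 of these were at 0 in both con libraries and 8 in both con-in vitro libraries. Their summed level was 47.5 and 70.8 CPM in con, against 110 and 35.8 CPM in con-in vitro. Gja1, the gap junction gene, made up much of the highest sum, with 0 and 0 CPM in con against 48.7 and 2.19 CPM in con-in vitro. The list's other called gene was Cyp11a1, of steroid synthesis, at 7.64 and 4.59 CPM in con and 0 in con-in vitro, at least 14.3-fold lower (adjusted p = 0.0444), a call lost without con-in vitro replicate 1 (adjusted p then 0.113) and without con-in vitro replicate 2 (adjusted p then 0.121). Nr5a2, a nuclear receptor and the list's most abundant member, stood at 4.79 and 34.7 CPM in con against 39.2 and 29.2 CPM in con-in vitro and did not pass. The somatic genes Fshr, Amhr2, Foxl2, Star and Inha were at 0 in all 4 libraries. The part of somatic transcripts in the results below was not tested. Of the 8 blood and immune markers only Cd68 was tested, and it was at 0 in all 4.

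Different transcripts led the libraries of each group. The promoters of 5 such genes are shown so that their CG content can be set side by side, chosen after their values were seen. H1f8 encodes the oocyte linker histone and Oosp1 a secreted oocyte protein, and both fell. Btg4, the deadenylation adaptor, Jag1, a Notch ligand, and Foxo3, a transcription factor that restrains follicle activation, rose. Each sequence is from RefSeq on GRCm38.p6, runs from 250 bases before to 50 after the start that RefSeq gives the gene, and is written 5′ to 3′ on the gene's strand with every CG pair in capitals. Gene positions given with the levels below span the gene models of the count table instead. For Btg4 these differ, since its model there begins at 51060901, well before the start that RefSeq uses. H1f8 lies at chr6:115944681-115944980 (plus strand), Oosp1 at chr19:11691002-11691301 (minus strand), Btg4 at chr9:51115751-51116050 (plus strand), Jag1 at chr2:137116471-137116770 (minus strand) and Foxo3 at chr10:42276646-42276945 (minus strand).
H1f8: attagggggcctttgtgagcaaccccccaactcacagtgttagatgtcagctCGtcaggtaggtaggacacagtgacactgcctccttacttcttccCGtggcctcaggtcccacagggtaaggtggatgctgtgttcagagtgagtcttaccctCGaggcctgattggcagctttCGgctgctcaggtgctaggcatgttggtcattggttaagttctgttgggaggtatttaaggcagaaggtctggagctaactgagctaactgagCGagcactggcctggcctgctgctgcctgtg
Oosp1: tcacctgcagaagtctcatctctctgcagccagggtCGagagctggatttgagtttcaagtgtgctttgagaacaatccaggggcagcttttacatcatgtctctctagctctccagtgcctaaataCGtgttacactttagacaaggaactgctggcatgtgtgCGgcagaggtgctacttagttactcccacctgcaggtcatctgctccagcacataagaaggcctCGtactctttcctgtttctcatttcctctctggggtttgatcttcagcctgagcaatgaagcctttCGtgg
Btg4: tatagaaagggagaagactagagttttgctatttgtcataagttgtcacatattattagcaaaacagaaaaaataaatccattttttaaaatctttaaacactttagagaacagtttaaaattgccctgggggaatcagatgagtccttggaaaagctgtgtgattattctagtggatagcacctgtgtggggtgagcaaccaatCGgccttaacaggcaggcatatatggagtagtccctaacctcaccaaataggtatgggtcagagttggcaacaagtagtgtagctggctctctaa
Jag1: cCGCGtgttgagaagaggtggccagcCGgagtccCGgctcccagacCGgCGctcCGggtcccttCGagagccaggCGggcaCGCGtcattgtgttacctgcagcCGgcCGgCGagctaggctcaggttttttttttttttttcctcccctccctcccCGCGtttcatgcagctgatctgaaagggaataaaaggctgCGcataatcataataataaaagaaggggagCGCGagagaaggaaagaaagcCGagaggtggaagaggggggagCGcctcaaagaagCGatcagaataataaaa
Foxo3: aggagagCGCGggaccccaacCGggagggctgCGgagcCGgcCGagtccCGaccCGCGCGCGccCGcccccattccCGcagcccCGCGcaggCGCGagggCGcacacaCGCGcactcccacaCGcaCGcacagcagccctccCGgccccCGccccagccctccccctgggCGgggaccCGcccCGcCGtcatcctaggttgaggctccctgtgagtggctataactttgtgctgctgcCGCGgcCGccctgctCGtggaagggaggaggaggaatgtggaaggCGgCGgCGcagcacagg
H1f8 and Oosp1 each hold 5 CG pairs, Jag1 holds 22 and Foxo3 35. Btg4 rose and holds 1. Over all 32851 promoters of the table the median was 7 CG pairs, and 38.0% held fewer than 5. Over the 11519 genes tested here that had an entry the median was 19, and 12.4% held fewer than 5. Those were 68.8% of the genes tested. Only 75 of the 100 most abundant genes of con had an entry in the table by symbol, under the 80% needed for a check of a whole set, so the comparison of promoters between the sets is void.

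Cultured and other control oocytes differed in the levels of a large part of their transcripts. Of 16736 genes tested, 2452 were higher in con-in vitro (14.7%) and 1753 lower (10.5%), or 25.1% in either direction, by edgeR's quasi-likelihood test at an adjusted p under 0.05. The higher genes had a median of 11.0 CPM in con-in vitro. Of them 1134 (46.2%) were at 0 in both con libraries, with a median of only 3.10 CPM in con-in vitro. The lower genes had a median of 99.1 CPM in con, and 354 of them were at 0 in both con-in vitro libraries. The libraries of the groups did not overlap for 1794 of the genes called higher and for all 1753 called lower, and over all genes tested for 3425 (20.5%) higher and 3854 (23%) lower. The median log2 fold change over all genes tested was 0. This median and the shares called, 14.7% higher and 10.5% lower, are the background for the gene lists below. They are not matched to lists of abundant or short genes. Of 7533 genes averaging at least 10 CPM in the 7 other libraries, the highest quintile by level had a median of -0.67 and 37.6% lower. The shortest quintile by length had a median of -0.99 and 28.3% lower.

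For part of the genes called, one or the other control lay outside the range of the other groups. Among the 2452 higher genes, con-in vitro lay above all 7 other libraries for 988 and con lay below all 7 for 1381. Among the 1753 lower genes, con-in vitro lay below all 7 for 1117 and con above all 7 for 594. Over all 16736 genes tested the corresponding numbers were 1718, 3644, 3970 and 1444. The genes called were chosen for a difference between the controls, which favours such positions. Of the higher genes 1134 were at 0 in both con libraries, where a place below the other libraries is nearly given. These counts therefore describe the genes called and do not assign the differences to either control.

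The counts depended on scaling and on single libraries. Scaled by library totals instead of TMM, the median of all genes moved to -0.49, and 1872 genes were higher and 3025 lower, so that the share of higher genes among those called went from 58.3% to 38.2%. Without con replicate 2 the counts were 3725 and 2813, and with only the 4 control libraries fitted they were 465 and 371. Of the 144 named genes called, none changed direction under these settings. Medians of gene lists near 0 did change sign. With library totals the median log2 went to -0.82 for the cyclic AMP pathway, to -0.77 for the subcortical maternal complex, to -0.53 for the zona and sperm receptor genes and to -0.80 for stress genes. Without con replicate 2 it went to 0.24 for nuclear genes of oxidative phosphorylation, to 1.16 for proteasome subunits, to 0.73 for deacetylase genes, to 0.48 for maternal chromatin genes and to 0.06 for the anaphase-promoting complex and the metaphase II arrest.

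**Figure D1:**
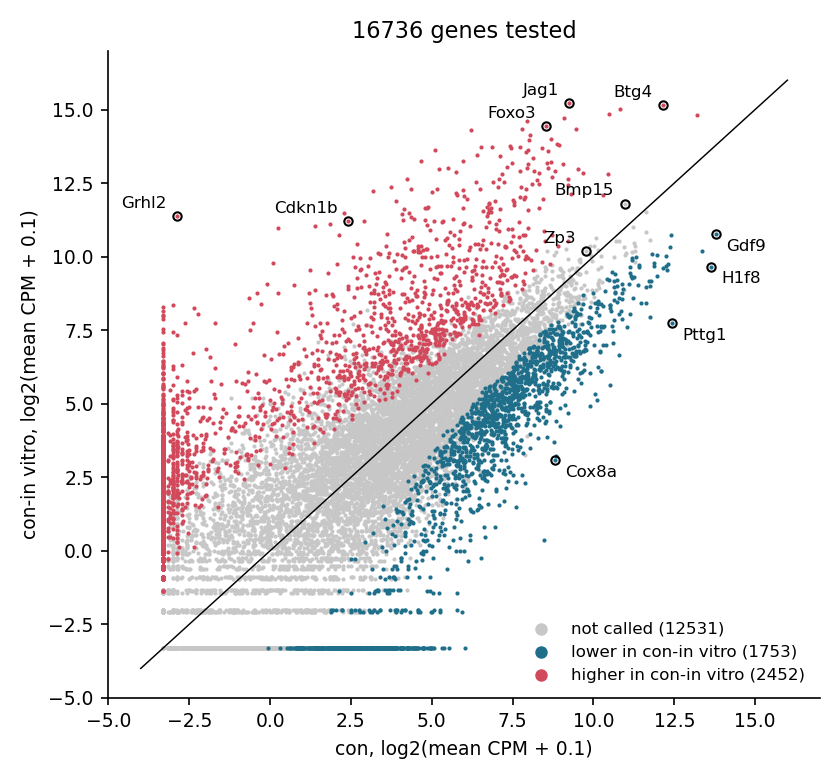
Each point is 1 of the 16736 genes tested, at its mean level in con (horizontal) and con-in vitro (vertical), both as log2(CPM + 0.1), with genes called higher or lower coloured and the diagonal marking equal levels. Gdf9, H1f8, Pttg1 and Cox8a lie below the diagonal, Jag1, Btg4, Foxo3, Cdkn1b and Grhl2 above it, and Bmp15 and Zp3, which were not called, near it.

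A small set of genes held a far larger share of the counts in con-in vitro. The 100 most abundant genes took 29.5% and 26.2% of all counts in con, against 52.2% and 53.3% in con-in vitro, a difference in means of 25.0 percentage points. The 7 other libraries lay between 19.0% and 36.1%, below both con-in vitro libraries. It took the 372 and 477 leading genes to reach 50% of the counts in con and the 88 and 83 leading genes in con-in vitro. The effective number of genes, the exponential of the Shannon entropy of the shares, was 1998 and 2495 in con, against 844 and 816 in con-in vitro. With 2 libraries a group no permutation test can pass 0.05, and these shares are given as values. Counted per kilobase of the gene length given with the counts, the shares of the top 100 were 44.5% and 39.5% against 51.7% and 52.8%, a difference of 10.3 points.

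**Figure D2:**
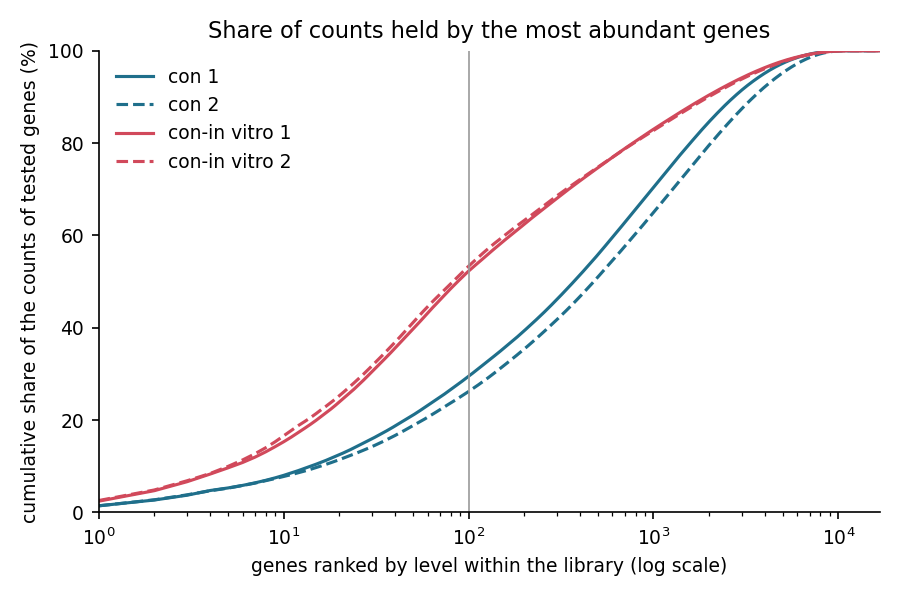
Cumulative share of the counts of tested genes (vertical, percent) by rank of the gene within its library (horizontal, log scale), with 1 line per control library and a grey line at rank 100. The con-in vitro lines (52.2% and 53.3% of all counts at rank 100) run above both con lines (29.5% and 26.2%) and lie almost on each other.

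The abundant genes were also different ones. Of each library's 100 most abundant genes, 85 were shared between the con libraries, 88 between the con-in vitro libraries, and 6 or 7 between any con and any con-in vitro library. The 100 leading genes of a con library took only 11.0% to 11.8% of all con-in vitro counts, and those of a con-in vitro library took 4.08% to 4.57% in con. The leading genes of con were also leading genes elsewhere, with 54 to 74 of them among the top 100 of each of the 7 other libraries, against 5 to 13 of the leading genes of con-in vitro. As no batch is given, a batch of libraries and the con-in vitro condition cannot be told apart in any comparison here. By mean level, 7 genes were in the top 100 of both groups, among them Bmp15, Btg4, Ccdc6, Lsm14b, Spin1 and Ypel5. Of the top 100 of con, 6 rose, 76 fell and 18 did not pass, with a median log2 of -2.02. Of the top 100 of con-in vitro, 99 rose and Bmp15 did not pass, with a median of 5.30. Each set was chosen for its high level in 1 group, which favours a difference in that direction, so these counts describe the sets and support nothing.

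The most abundant transcripts of con included those of several oocyte genes, described here because they were high in con. Gdf9 (chr11:53431023-53437904), the growth factor by which the oocyte directs its granulosa cells, stood at 15251 and 13142 CPM in con against 1319 and 2175 CPM in con-in vitro (log2 -3.02 ± 0.35 with adjusted p = 0.000636, where ± is the standard error). H1f8 (chr6:115944938-115950236) stood at 13468 and 11938 CPM in con against 813 and 801 CPM in con-in vitro (log2 -3.98 ± 0.28 with adjusted p = 9.49e-05). Bcl2l10, an antiapoptotic Bcl2 family gene, stood at 11018 and 9865 CPM in con against 1366 and 952 CPM in con-in vitro (log2 -3.17 ± 0.33 with adjusted p = 0.000374). The groups did not overlap for any of them. In the 7 other libraries Gdf9 ranged from 4456 to 8289 CPM and H1f8 from 5181 to 15602 CPM, so con-in vitro lay below every other library for both, and con lay above every other library for Gdf9.

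Further down the same ranking, Pttg1, which encodes securin, fell from 5853 and 5265 CPM to 304 and 125 CPM (log2 -4.69 ± 0.50 with adjusted p = 0.00045). Oosp1 fell from 4669 and 5231 CPM to 1044 and 453 CPM (log2 -2.73 ± 0.50 with adjusted p = 0.00557). Mat2b, a regulatory subunit of methionine adenosyltransferase, fell from 5671 and 4112 CPM to 834 and 798 CPM (log2 -2.58 ± 0.29 with adjusted p = 0.000535). Pttg1 and Oosp1 were higher in con-in vitro replicate 1 than in replicate 2, and both replicates stayed far below con. Tcl1, an Akt cofactor, and Trim61 also belonged to the 10 largest losses in CPM, at log2 -2.52 ± 0.33 and log2 -2.22 ± 0.36. Slc45a3, a solute carrier gene, passed as well (log2 -2.02 ± 0.53 with adjusted p = 0.0265), but lost its call without con-in vitro replicate 1 (adjusted p then 0.134) and without con-in vitro replicate 2 (adjusted p then 0.0547).

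The top of con-in vitro was taken by genes at far lower levels in con. Jag1 (chr2:137081456-137116644) stood at 694 and 530.4 CPM in con against 42037 and 34664 CPM in con-in vitro (log2 5.97 ± 0.51 with adjusted p = 0.000177). Foxo3 (chr10:42181841-42276755) stood at 426 and 321 CPM in con against 21472 and 22548 CPM in con-in vitro (log2 5.88 ± 0.39 with adjusted p = 8.26e-05). Wtap, an adaptor of the N6-methyladenosine methyltransferase, stood at 663 and 424 CPM in con against 30489 and 23469.6 CPM in con-in vitro (log2 5.63 ± 0.47 with adjusted p = 0.000167). None of these overlapped between groups, and the 7 other libraries were low, with Jag1 at 227 to 883 CPM, Foxo3 at 103 to 908 CPM and Wtap at 403 to 1435 CPM.

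Further genes among the most abundant of con-in vitro, or with the largest gains in CPM, had the same pattern. Actr2, a subunit of the Arp2/3 actin nucleator, rose from 326 and 165 CPM to 24956 and 24578 CPM (log2 6.66 ± 0.65 with adjusted p = 0.000293). Dyrk1a, a protein kinase gene, rose from 42.1 and 107 CPM to 20725 and 20128 CPM (log2 8.10 ± 0.60 with adjusted p = 9.82e-05). Arf6, which encodes a GTPase of endosome recycling, rose from 28.04 and 63.3 CPM to 8747 and 7735 CPM (log2 7.49 ± 0.51 with adjusted p = 8.42e-05). In all 3 the con-in vitro replicates lay close together, whereas Dyrk1a and Arf6 were higher in con replicate 2 than in replicate 1. Tspyl1 (log2 6.54 ± 0.50), Strn, a striatin of phosphatase 2A complexes (log2 4.88 ± 0.47), and Ccdc6 (log2 4.38 ± 0.44) completed this group. Strn and Ccdc6 were higher in con-in vitro replicate 2 than in replicate 1.

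A few genes were abundant in both groups. Btg4 (chr9:51060901-51119875) rose from 5739 and 3433 CPM to 44922 and 27543 CPM (log2 2.98 ± 0.40 with adjusted p = 0.00126). Lsm14b, an RNA-binding protein of oocyte storage particles, rose from 1892 and 1714 CPM to 21239.9 and 45012 CPM (log2 4.20 ± 0.51 with adjusted p = 0.000806). Spin1, a spindlin gene active in oocyte maturation, rose from 10902 and 8054 CPM to 35662 and 22435 CPM (log2 1.62 ± 0.32 with adjusted p = 0.00768). The con-in vitro replicates differed here, Btg4 and Spin1 being higher in replicate 1 and Lsm14b in replicate 2, but each stayed above both con libraries. Bmp15, the partner of Gdf9, stood at 1845 and 2146 CPM in con against 3921 and 3208 CPM in con-in vitro without overlap and did not pass (log2 0.84 ± 0.30 with adjusted p = 0.0713). Spin1 lost its call with only the 4 control libraries fitted.

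**Figure D3:**
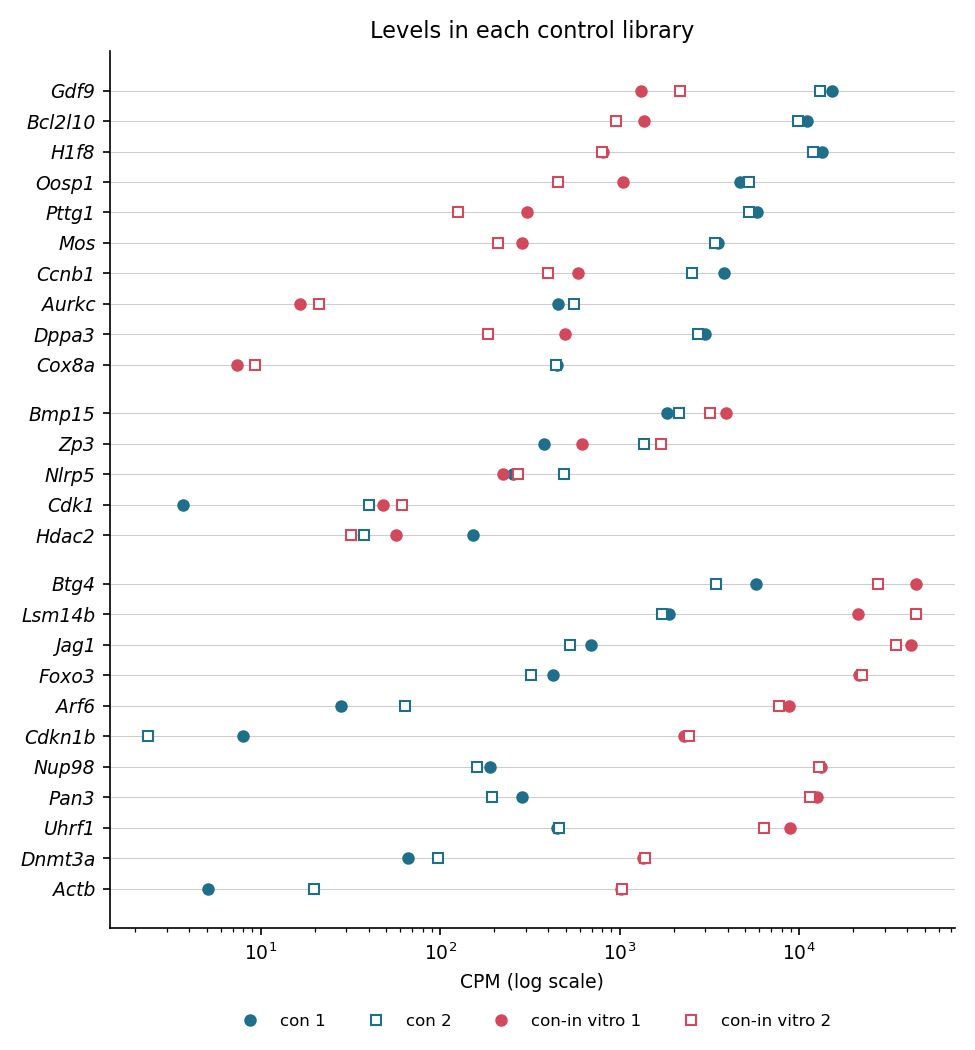
Level of 26 named genes in each control library (CPM, log scale), with con in blue, con-in vitro in red, filled circles for replicate 1 and open squares for replicate 2. The upper block holds genes that fell (Gdf9 to Cox8a), the middle block genes that did not pass and the lower block genes that rose (Btg4 to Actb).

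Of 11 tested genes of the cyclic AMP pathway, which holds the prophase arrest, 7 were not called. The other 4 rose (36.4%, beside 14.7% of all genes tested) and 0 fell (beside 10.5%). The median log2 was 0.02. The counts were 3 higher and 2 lower with library totals and 3 higher and 1 lower without con-in vitro replicate 1. Prkaca, the catalytic subunit of protein kinase A, stood at 22.1 and 25.3 CPM in con against 159.9 and 155 CPM in con-in vitro (log2 2.73 ± 0.49 with adjusted p = 0.00477). Pde3a, the phosphodiesterase whose activity lowers cyclic AMP at resumption, stood at 415 and 444 CPM in con against 391 and 362 CPM in con-in vitro and did not pass (log2 -0.19 ± 0.40 with adjusted p = 0.85). The adenylyl cyclase gene Adcy9 was at 0 in con and at 5.04 and 0.82 CPM in con-in vitro. Its mean there was 66.1-fold the floor in con, but rested on 20 counts, and con-in vitro replicate 2 was at its own floor. Adcy9 and Adcy3, both with few counts, were among the 4 genes that rose. The receptor gene Gpr3, which keeps cyclic AMP high, did not pass (log2 -0.51 ± 0.50). Adcy3 rested on 1 library (2.97 and 0 CPM in con-in vitro, 0 in con) and lost its call without con replicate 1 (adjusted p then 0.0509) and without con replicate 2 (adjusted p then 0.0588) and without con-in vitro replicate 1 (adjusted p then 1).

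Cyclins were lower while Cdk1 itself did not pass. Of 18 genes of Cdk1 activation 2 rose (11.1%, beside 14.7% of all genes) and 3 fell (16.7%, beside 10.5%), with a median log2 of -0.26. Ccnb1, the main cyclin of the maturation-promoting factor, stood at 3801 and 2522 CPM in con against 590.2 and 401 CPM in con-in vitro (log2 -2.67 ± 0.37 with adjusted p = 0.00143). Ccna2 fell from 681 and 421 CPM to 128 and 107 CPM (log2 -2.23 ± 0.36) and Ccnb2 from 305 and 289.5 CPM to 66.8 and 107 CPM (log2 -1.77 ± 0.32). Cdk1 stood at 3.68 and 40.01 CPM in con against 47.8 and 61.2 CPM in con-in vitro (log2 1.32 ± 0.87 with adjusted p = 0.319), so its con replicates differed by more than the groups did. Cdc25a, a phosphatase that activates Cdk1, rose from 8.16 and 2.71 CPM to 143 and 137 CPM (log2 4.69 ± 0.63 with adjusted p = 0.00133), and Wee2, the oocyte kinase that restrains Cdk1, from 579.8 and 619 CPM to 1436 and 1499 CPM (log2 1.29 ± 0.30 with adjusted p = 0.0145). The counts were 4 higher and 4 lower without con replicate 1 and 7 higher and 5 lower without con replicate 2, and 1 higher and 9 lower with library totals, where Wee2 lost its call.

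Cdkn1b, which encodes the cyclin-dependent kinase inhibitor p27, rose from a few CPM to the level of abundant transcripts. It (chr6:134920401-134925513) stood at 8.03 and 2.37 CPM in con against 2271 and 2435 CPM in con-in vitro (log2 8.83 ± 0.81 with adjusted p = 0.000231). Both con-in vitro libraries were near the same level, and the 7 other libraries ranged from 2.16 to 62.8 CPM, close to con. Of 7 tested inhibitor genes 2 rose (28.6%) and 0 fell, with a median log2 of 1.93. That median was 4.35 without con replicate 1 and 4.18 without con replicate 2. It was 0.08 without con-in vitro replicate 1 and 0.00 without con-in vitro replicate 2. The other, Cdkn1c, was detected in 1 library (2.97 and 0 CPM in con-in vitro, 0 in con) and lost its call without con-in vitro replicate 1 (adjusted p then 1). 

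Genes of the anaphase-promoting complex and of the spindle checkpoint moved in both directions. Of 28 tested, 5 were higher (17.9%, beside 14.7% of all genes tested) and 10 lower (35.7%, beside 10.5%), with a median log2 of -0.64. Securin (Pttg1, above) fell furthest, followed by the complex's subunit gene Cdc26, at 127 and 62.2 CPM in con against 3.86 and 7.1 CPM in con-in vitro (log2 -4.11 ± 0.61 with adjusted p = 0.00216). Also lower were its coactivator gene Cdc20 (log2 -2.24 ± 0.37 with adjusted p = 0.00343), separase (Espl1, log2 -2.72 ± 0.39 with adjusted p = 0.0017) and the checkpoint gene Mad2l1 (log2 -2.37 ± 0.42 with adjusted p = 0.00503). Ttk, a checkpoint kinase, rose from 20.2 and 88.2 CPM to 346 and 337 CPM (log2 2.66 ± 0.62 with adjusted p = 0.0157). Bub1 rose as well (log2 2.31 ± 0.63 with adjusted p = 0.0297) and lost its call without con replicate 1 (adjusted p then 0.0513) and without con-in vitro replicate 1 (adjusted p then 0.138). With library totals, which shift the median of all genes down, 0 were higher and 12 lower, and the counts were 3 higher and 11 lower without con replicate 2 and 2 higher and 11 lower without con-in vitro replicate 1.

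The metaphase II arrest pathway divided by step. Of 10 genes 2 rose (20%) and 2 fell (20%), with a median log2 of -0.08. Mos, the kinase at the head of the pathway, stood at 3533 and 3383 CPM in con against 287 and 210.4 CPM in con-in vitro (log2 -3.80 ± 0.36 with adjusted p = 0.000267), with 997 to 1965 CPM in the other libraries. Map2k1, the MAP kinase kinase below it, fell from 1457 and 967 CPM to 203 and 189 CPM (log2 -2.63 ± 0.35 with adjusted p = 0.00119). Fbxo5, which encodes the inhibitor Emi1 of the anaphase-promoting complex, rose from 11.3 and 21.1 CPM to 130.0 and 122 CPM (log2 2.96 ± 0.43 with adjusted p = 0.00194), and its relative Fbxo43, the arrest factor Emi2, did not pass (log2 -0.57 ± 0.47).

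Of 12 spindle and chromosomal passenger genes 0 were higher (beside 14.7% of all genes tested) and 5 lower (41.7%, beside 10.5%). Their median log2 was -1.44. The quintile of highest level in the 7 other libraries had 37.6% lower, close to the share of this list, and a median of -0.67. Aurkc, the Aurora kinase of germ cells, stood at 453 and 557 CPM in con against 16.6 and 21.04 CPM in con-in vitro (log2 -4.75 ± 0.37 with adjusted p = 0.000108). Cdca8, which encodes the passenger protein borealin, fell from 758 and 527 CPM to 87.2 and 122 CPM (log2 -2.62 ± 0.33 with adjusted p = 0.00093), and Tpx2, a spindle assembly factor, from 378 and 312 CPM to 135 and 111 CPM (log2 -1.49 ± 0.32 with adjusted p = 0.011). The counts were 1 higher and 6 lower without con replicate 2 and 0 higher and 3 lower without con-in vitro replicate 2. Meiotic cohesin genes had 2 of 10 higher and 0 lower and a median log2 of 0.00, and the counts were 3 higher and 2 lower without con replicate 2. Smc1b, the meiotic cohesin subunit, had 2 counts over both con libraries and 36.2 and 21.9 CPM in con-in vitro, a ratio of 971-fold (95% interval 265 to 8074).

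Nuclear envelope and pore genes had 4 of 13 higher (30.8%) and 1 lower (7.69%), with a median log2 of 1.10. With library totals the counts were 3 higher and 3 lower and the median 0.37, and without con replicate 2 the median was 0.49. Nup98, a nucleoporin, stood at 191 and 161 CPM in con against 13297 and 12948 CPM in con-in vitro (log2 6.22 ± 0.39 with adjusted p = 6.83e-05), against 86.4 to 903 CPM in the other libraries. Nup155 stood at 6.88 and 18.3 CPM in con against 785 and 503 CPM in con-in vitro (log2 5.67 ± 0.58 with adjusted p = 0.000361). Sun1, an inner membrane protein, fell (log2 -1.68 ± 0.44 with adjusted p = 0.0265) but lost its call without con replicate 1 (adjusted p then 0.0704) and without con-in vitro replicate 1 (adjusted p then 0.0756) and without con-in vitro replicate 2 (adjusted p then 0.0865).

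**Figure D4:**
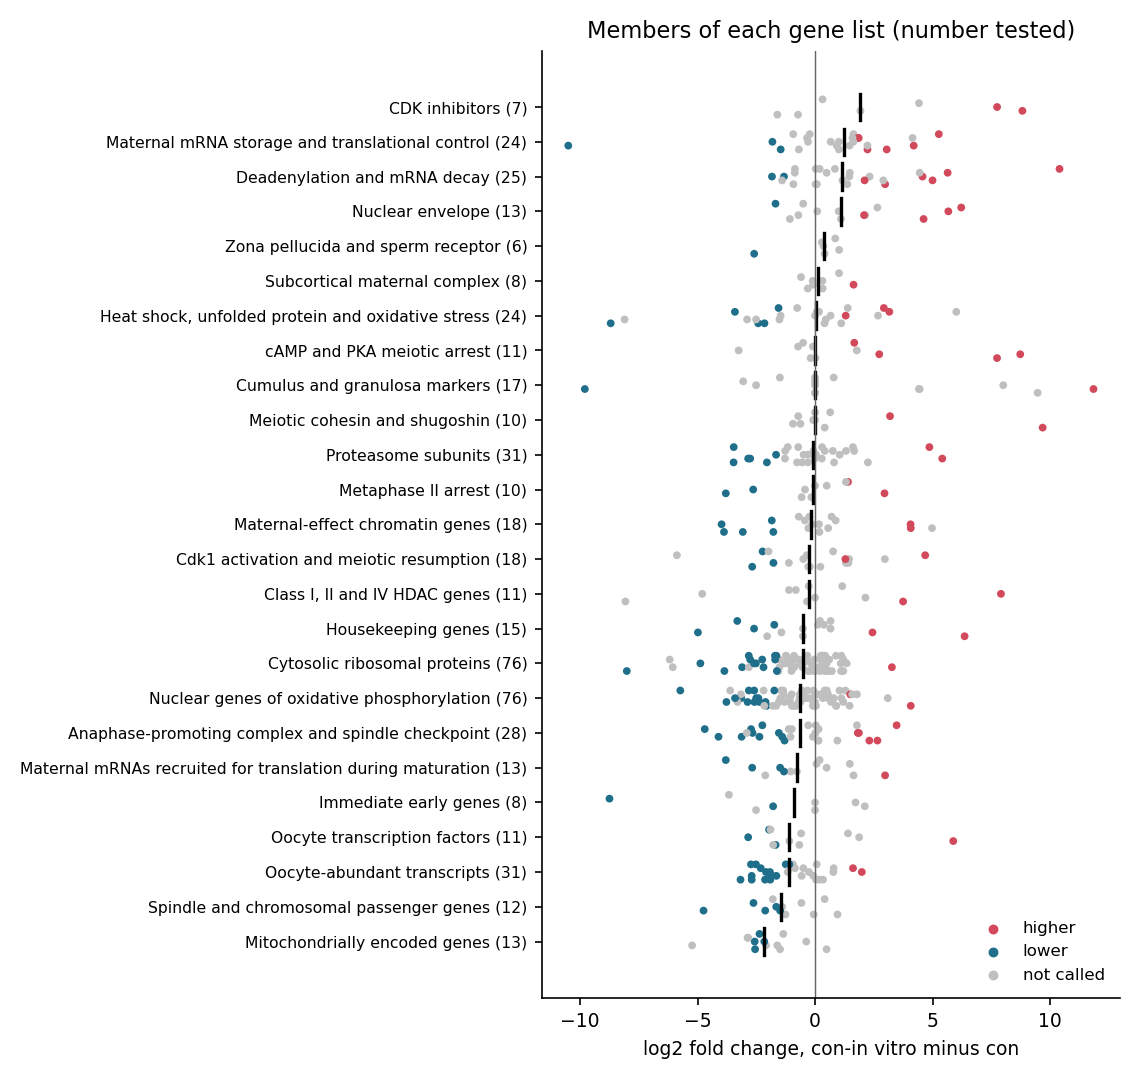
Each point is 1 tested gene of a list with at least 5 members tested (number tested in parentheses), at its log2 fold change of con-in vitro over con (horizontal), red where called higher, blue where called lower and grey where not called, with a black bar at the list's median. Medians run from -2.16 for mitochondrially encoded genes to 1.93 for the inhibitors of cyclin-dependent kinases, beside 0 over all genes tested. The first was -1.11 without con replicate 1, and the second was 0.08 and 0.00 without con-in vitro replicate 1 and 2.

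Genes of the deadenylation machinery were shifted upward in the middle of the list, with a median log2 of 1.16 (0.21 with library totals). Of 25 tested, 6 were higher (24%) and 2 lower (8%). Besides Btg4, Pan3, a subunit of the PAN2-PAN3 deadenylase, rose from 286 and 195 CPM to 12528 and 11526 CPM (log2 5.64 ± 0.50 with adjusted p = 0.000208). Its partner Pan2 fell from 298 and 315 CPM to 94.7 and 77.3 CPM (log2 -1.83 ± 0.39 with adjusted p = 0.0104). Cnot9, a CCR4-NOT subunit, rose from 6.71 and 20.9 CPM to 503 and 381 CPM (log2 5.00 ± 0.58 with adjusted p = 0.000617). The catalytic subunit genes of CCR4-NOT did not pass, with Cnot7 at log2 0.19 ± 0.32, Cnot8 at log2 0.08 ± 0.40, Cnot6 at log2 1.46 ± 0.50 and Cnot6l at log2 1.48 ± 0.52. Ythdf2, a reader of N6-methyladenosine that promotes decay, rose as well (log2 4.57 ± 0.44 with adjusted p = 0.000275). Dcp1a, a decapping factor, fell (log2 -1.32 ± 0.32 with adjusted p = 0.0191) and lost its call without con replicate 1 (adjusted p then 0.0529) and without con-in vitro replicate 2 (adjusted p then 0.0759), and the counts were 9 higher and 4 lower without con replicate 2.

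Genes that store and translate maternal mRNA had 6 of 24 higher (25%) and 3 lower (12.5%). Their median log2 was 1.24 (0.37 with library totals, where 1 was higher and 4 lower). The storage paralogs Lsm14b and Lsm14a went opposite ways, the latter from 1948 and 1229 CPM to 608 and 545 CPM (log2 -1.46 ± 0.34 with adjusted p = 0.0148), a call lost without con replicate 1 (adjusted p then 0.0518) and without con-in vitro replicate 2 (adjusted p then 0.0568). Zar1, which organises maternal mRNA stores, stood at 2245 and 2326 CPM in con against 274 and 1026 CPM in con-in vitro (log2 -1.81 ± 0.55 with adjusted p = 0.04), and lost its call without con-in vitro replicate 1 (adjusted p then 0.0726). Ybx2, the abundant Y-box protein of oocyte storage particles, stood at 26.6 and 75.9 CPM in con against 69.4 and 215 CPM in con-in vitro and did not pass (log2 1.47 ± 0.63 with adjusted p = 0.127). The polyadenylation factor gene Cpeb1 rose (log2 2.23 ± 0.54 with adjusted p = 0.0181).

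Of 13 mRNAs known to be recruited for translation during maturation, 1 rose (Btg4, 7.69%) and 4 fell (Mos, Ccnb1, Tpx2 and Dcp1a, 30.8%). Their median log2 was -0.77. The quintile of highest level in the 7 other libraries had a median of -0.67, with 37.6% lower. The counts were 3 higher and 3 lower without con replicate 1. Plat, tissue plasminogen activator, the textbook case of such recruitment, did not pass (3793 and 2489 CPM in con against 1989 and 1687 CPM in con-in vitro, log2 -0.77 ± 0.36). 

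Few genes of the subcortical maternal complex and of the zona pellucida were called, and the medians of both lists turned on single libraries. For the complex the median log2 was 1.17 without con replicate 2 and -0.29 without con replicate 1. Of 8 complex genes 1 rose (12.5%) and 0 fell, with a median log2 of 0.12. Nlrp5 stood at 255 and 493 CPM in con against 224 and 270.2 CPM in con-in vitro (log2 -0.60 ± 0.40 with adjusted p = 0.327). Zbed3, its most abundant member by CPM, stood at 3342 and 2996 CPM in con against 1659.9 and 4259 CPM in con-in vitro (log2 -0.10 ± 0.44 with adjusted p = 1). Both overlapped between groups. Nlrp2, the gene that passed (log2 1.64 ± 0.41 with adjusted p = 0.0219), lost its call without con replicate 1 (adjusted p then 0.056) and without con-in vitro replicate 2 (adjusted p then 0.0511), and the counts were 4 higher and 0 lower without con replicate 2. 

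The zona genes Zp1 (162 and 528 CPM in con against 223 and 621 CPM in con-in vitro), Zp2 (118 and 602 CPM in con against 587 and 721 CPM in con-in vitro) and Zp3 (379.8 and 1371 CPM in con against 616 and 1706 CPM in con-in vitro) overlapped between groups and did not pass, at log2 0.29 ± 0.58, log2 0.86 ± 0.61 and log2 0.41 ± 0.60. In each of them con replicate 2 lay well above con replicate 1, by more than the groups differed. The list's median log2 was 0.38, against 1.54 without con replicate 2 and -0.28 without con replicate 1. Without con replicate 2, 2 of the 6 zona and sperm receptor genes were higher and 1 lower. Astl, the protease gene of the cortical granules that cleaves the zona after fertilisation, fell from 1256 and 1177 CPM to 163 and 241 CPM (log2 -2.59 ± 0.46 with adjusted p = 0.00515).

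Chromatin genes with maternal effects moved in both directions, 2 of 18 higher (11.1%) and 5 lower (27.8%), with a median log2 of -0.19. Uhrf1, a cofactor of maintenance DNA methylation, stood at 450.1 and 458 CPM in con against 8920.0 and 6370.2 CPM in con-in vitro (log2 4.07 ± 0.33 with adjusted p = 0.000126). Dnmt3a, the de novo DNA methyltransferase of the oocyte, stood at 66.04 and 97.03 CPM in con against 1348 and 1382 CPM in con-in vitro (log2 4.06 ± 0.39 with adjusted p = 0.00025). Kmt2b, the H3K4 methyltransferase, stood at 279 and 293 CPM in con against 19.6 and 19.4 CPM in con-in vitro (log2 -3.88 ± 0.38 with adjusted p = 0.000274). The con-in vitro replicates of Dnmt3a and Kmt2b were nearly equal, and no gene of the 3 overlapped between groups. Dppa3, a protector of maternal methylation, fell from 2992 and 2741 CPM to 495 and 186 CPM (log2 -3.07 ± 0.44 with adjusted p = 0.00187), and Dnmt1 did not pass (log2 0.56 ± 0.48). The counts were 4 higher and 5 lower without con replicate 2.

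Among 11 oocyte transcription factor genes, Foxo3 rose (9.09%) and Pou5f1, Obox1 and Obox2 fell (27.3%), with a median log2 of -1.09. Pou5f1 stood at 21.7 and 43.7 CPM in con against 4.45 and 4.64 CPM in con-in vitro (log2 -2.85 ± 0.70 with adjusted p = 0.0194). Obox1 stood at 3162 and 1715 CPM in con against 806 and 451 CPM in con-in vitro (log2 -1.96 ± 0.45 with adjusted p = 0.0157), a call lost without con-in vitro replicate 2 (adjusted p then 0.0826), and its near copy Obox2 may share reads with it. Obox2 (log2 -1.68 with adjusted p = 0.0441) lost its own call without con replicate 1 (adjusted p then 0.113) and without con-in vitro replicate 2 (adjusted p then 0.183). Nobox and Lhx8, regulators of follicle growth, did not pass (log2 1.40 ± 0.78 and log2 1.88 ± 0.65).

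Of 31 tested transcripts listed as abundant in oocytes 2 were higher and 15 lower, with a median log2 of -1.09. The share lower was 48.4%, beside 10.5% of all genes tested and 37.6% of the quintile of highest level in the 7 other libraries. The list was chosen with earlier results of these data known. It has 12 genes in the top 100 of con and 1 in that of con-in vitro, which favours a fall. Within it Tcl1 and all 5 Tcl1b genes fell, from log2 -1.09 ± 0.34 for Tcl1b5 to log2 -2.70 ± 0.38 for Tcl1b1. Tcl1b1 stood at 1996 and 1665 CPM in con against 278 and 287 CPM in con-in vitro (log2 -2.70 ± 0.38 with adjusted p = 0.00158). These genes are close copies, and how the counting divided shared reads is not given in the sources used here. Ldhb, the lactate dehydrogenase subunit of oocytes, fell from 1999.8 and 2709 CPM to 649 and 600.0 CPM (log2 -1.91 ± 0.28 with adjusted p = 0.00198). None of the Nlrp4 and Nlrp9 genes passed, and Nlrp14 rose (log2 1.99 ± 0.56 with adjusted p = 0.0318), a call lost without con replicate 1 (adjusted p then 0.0811) and without con-in vitro replicate 1 (adjusted p then 0.134) and without con-in vitro replicate 2 (adjusted p then 0.0515).

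Of 8 markers of the 2-cell embryo's genome activation 3 were tested, with 0 higher and 2 lower. Tcstv1 stood at 111 and 197 CPM in con against 14.8 and 16.1 CPM in con-in vitro (log2 -3.31 ± 0.44 with adjusted p = 0.00119). Tcstv3 stood at 20.4 and 19.2 CPM in con against 0.593 and 5.19 CPM in con-in vitro and lost its call without con-in vitro replicate 1 (adjusted p then 0.0649).

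Mitochondrially encoded transcripts took 1.86% and 0.948% of the counts in con, against 0.207% and 0.106% in con-in vitro. Of the 13 genes 12 had fitted values below 0, 4 fell (30.8%, beside 10.5% of all genes tested) and 0 rose (beside 14.7%). Their median log2 was -2.16 (-1.11 without con replicate 1). mt-Co1, a cytochrome oxidase subunit, stood at 5868 and 4269.7 CPM in con against 1086 and 625 CPM in con-in vitro (log2 -2.57 ± 0.64 with adjusted p = 0.0206), and lost its call without con-in vitro replicate 1 (adjusted p then 0.0508) and without con-in vitro replicate 2 (adjusted p then 0.118). The number lower was 1 without con replicate 1, 8 without con replicate 2, 2 without con-in vitro replicate 1 and 0 without con-in vitro replicate 2.

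Nuclear genes of oxidative phosphorylation had 2 of 76 higher (2.63%, beside 14.7% of all genes tested) and 14 lower (18.4%, beside 10.5%). The median log2 was -0.63. Cox8a, a small cytochrome oxidase subunit, stood at 447 and 443 CPM in con against 7.42 and 9.29 CPM in con-in vitro (log2 -5.73 ± 0.43 with adjusted p = 9.82e-05). Cycs, cytochrome c, stood at 131 and 129 CPM in con against 9.79 and 9.29 CPM in con-in vitro (log2 -3.77 ± 0.44 with adjusted p = 0.000589). Atp5b, the catalytic subunit of ATP synthase, stood at 591 and 621 CPM in con against 85.5 and 149 CPM in con-in vitro (log2 -2.37 ± 0.36 with adjusted p = 0.00222). The con replicates of each were close, and no gene of the 3 overlapped between groups. The counts were 18 higher and 16 lower without con replicate 2 and 2 higher and 25 lower without con-in vitro replicate 1, so the higher calls of this list turned on con replicate 2.

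Cytosolic ribosomal protein genes had 1 of 76 higher (1.32%, beside 14.7% of all genes tested) and 14 lower (18.4%, beside 10.5%). The median log2 was -0.52. The list's direction turned on 1 library, since without con replicate 2 its median was 1.06 with 20 higher and 12 lower. Without con-in vitro replicate 2 the number lower was 7. Rps15a stood at 796 and 1107 CPM in con against 109 and 22.1 CPM in con-in vitro (log2 -3.86 ± 0.74 with adjusted p = 0.00689). Processed copies of these genes can take their reads, and 3 more list members had too few counts to be tested.

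Proteasome subunit genes had 2 of 31 higher (6.45%, beside 14.7% of all genes tested) and 6 lower (19.4%, beside 10.5%). The median log2 was -0.07. Psmd2 and Psmd3, subunits of the regulatory particle, fell, the first from 131 and 109 CPM to 11.9 and 9.84 CPM (log2 -3.47 ± 0.43 with adjusted p = 0.000861) and the second by log2 -2.85 ± 0.46. Psmd11 of the same particle rose from 5.39 and 1 CPM to 121 and 150.3 CPM (log2 5.41 ± 0.76 with adjusted p = 0.00166). The number of higher members was 7 without con replicate 2.

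Stress genes had 3 of 24 higher (12.5%) and 5 lower (20.8%), with a median log2 of 0.04. Among the genes called, Gpx1 and Prdx1 had the widest falls. Gpx1, glutathione peroxidase, stood at 59.1 and 63.98 CPM in con and had 1 count over both con-in vitro libraries, a ratio of 435-fold (95% interval 78.04 to 17187). Prdx1, a peroxiredoxin, fell from 1767 and 918 CPM to 155 and 97.3 CPM (log2 -3.41 ± 0.44 with adjusted p = 0.00111), and Sod2, the mitochondrial superoxide dismutase, from 92.3 and 90.8 CPM to 18.99 and 15.3 CPM (log2 -2.42 ± 0.44 with adjusted p = 0.00535). Hsp90aa1, a cytosolic chaperone, rose from 49.8 and 318 CPM to 2023 and 1269.9 CPM (log2 3.16 ± 0.77 with adjusted p = 0.0191), a call lost without con-in vitro replicate 1 (adjusted p then 0.0677). The counts were 7 higher and 9 lower without con replicate 2 and 1 higher and 6 lower without con-in vitro replicate 1. Of 8 immediate early genes 0 rose and 2 fell (25%), among them Dusp1, a MAP kinase phosphatase (log2 -1.78 ± 0.37 with adjusted p = 0.00902).

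Histone deacetylase genes, the subject of the wider study, were low in both groups. Of 11 tested genes, Kat8 included, 2 rose (18.2%) and 0 fell, with a median log2 of -0.27. Hdac2 stood at 153 and 37.9 CPM in con against 56.7 and 31.7 CPM in con-in vitro (log2 -1.11 ± 0.60 with adjusted p = 0.222). Hdac3 stood at 23.4 and 37.4 CPM in con against 26.7 and 23.8 CPM in con-in vitro (log2 -0.27 ± 0.44 with adjusted p = 0.767). Kat8, the acetyltransferase of H4K16, stood at 12.4 and 80.9 CPM in con against 17.8 and 55.7 CPM in con-in vitro (log2 -0.34 ± 0.94 with adjusted p = 0.917). These 3 genes overlapped between groups and differed by less than their replicates did. Hdac1 had 0.0695 and 3.61 CPM in con and 0 in con-in vitro and did not pass (adjusted p = 0.115). The genes called, Hdac4 and Hdac7, lost their calls without con-in vitro replicate 2, and Hdac7 was detected only in that library among the 4.

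Some genes often used as references differed widely, while 9 of the 15 tested were not called. Actb, beta-actin, stood at 5.07 and 19.7 CPM in con against 1015 and 1032 CPM in con-in vitro (log2 6.37 ± 0.73 with adjusted p = 0.000609), with 21.6 to 130.3 CPM in the other libraries. Ppia, cyclophilin A, went the other way, at 40.8 and 42.4 CPM in con against 2.67 and 0 CPM in con-in vitro (log2 -4.98 ± 0.93 with adjusted p = 0.00609). Hprt fell from 329 and 158 CPM to 38.9 and 10.4 CPM (log2 -3.31 ± 0.63). Ubb stood at 475 and 909 CPM in con against 511 and 458 CPM in con-in vitro, overlapped and did not pass (log2 -0.51 ± 0.64). The calls of Ppia and Hprt were lost with only the 4 control libraries fitted. In all 2 of 15 rose (13.3%, beside 14.7% of all genes tested) and 4 fell (26.7%, beside 10.5%), with a median log2 of -0.51.

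The widest rises were of genes close to 0 in con and abundant in con-in vitro. Grhl2, an epithelial transcription factor, had 2 counts over both con libraries and 3302 and 1999.7 CPM in con-in vitro, a ratio of 88681-fold (95% interval 24546 to 732321), while the other libraries held 10.7 to 60.4 CPM. Il1r2, the interleukin 1 decoy receptor, and Ly96, a partner of Toll-like receptor 4, were at 0 in con and at 189 and 374 CPM and 331 and 184 CPM in con-in vitro, at least 6337-fold and at least 5799-fold higher. Adamts18, a secreted metalloprotease gene, was at least 5310.1-fold higher. In con-in vitro each of these lay above every one of the 7 other libraries, and in con each lay below every one. Those libraries held 8.46 to 19.7 CPM of Il1r2, 1.08 to 4.87 CPM of Ly96 and 0.98 to 5.66 CPM of Adamts18. The folds thus also take in the low level of con.

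Genes with more than 3 counts in con followed, some of them still close to the floor there. Prkg2, a cyclic GMP-dependent protein kinase, stood at 0.139 and 0.0515 CPM in con against 284 and 331 CPM in con-in vitro (log2 11.61 ± 0.80 with adjusted p = 8.42e-05). The size of that fold rested on only 6 con counts, and con replicate 2 lay below its floor of 0.0773 CPM. Ppwd1, a cyclophilin-type isomerase, stood at 1.15 and 1.03 CPM in con against 1979 and 2037 CPM in con-in vitro (log2 10.84 ± 0.52 with adjusted p = 5.19e-05). Acvr2b, an activin receptor, was at 0 and 1.93 CPM in con, against 802 and 943 CPM in con-in vitro (log2 9.78 ± 1.52 with adjusted p = 0.00265). Its fold rested on con replicate 2, the con library with counts, and was 8.81 on the log2 scale without con replicate 1. Without con replicate 2 con was at 0. Fgf10, a growth factor gene, rose by log2 9.51 ± 1.30, and its con level came almost wholly from replicate 1 (1.04 and 0.0258 CPM). The con-in vitro replicates of Prkg2, Ppwd1 and Acvr2b were close, and none of the 3 overlapped between groups.

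The widest falls were of genes well above the floor in con. Ube3b, a ubiquitin ligase gene, and Guk1, guanylate kinase, stood at 61.5 and 68.97 CPM and 37.7 and 44.9 CPM in con and at 0 in con-in vitro, at least 153-fold and at least 96.7-fold lower. Serf2 stood at 129.6 and 70.9 CPM in con against 1.48 and 1.09 CPM in con-in vitro (log2 -6.28 ± 0.61 with adjusted p = 0.000274). Rexo2, a mitochondrial RNA exonuclease, stood at 91.6 and 158 CPM in con against 0.297 and 3.01 CPM in con-in vitro (log2 -6.21 ± 0.84 with adjusted p = 0.00135), and the value was -8.69 without con-in vitro replicate 2. Ciao2a, of cytosolic iron-sulfur assembly, stood at 58.5 and 29.3 CPM in con against 0.297 and 0.82 CPM in con-in vitro (log2 -6.27 ± 0.84 with adjusted p = 0.00124). Pecam1, an adhesion gene, fell by log2 -5.95 ± 0.86, Mrps23 of the mitochondrial ribosome by log2 -5.93 ± 1.16 and the small heat shock gene Hspb1 by log2 -6.64 ± 1.21. Mrps23 stood at 67.4 and 129 CPM in con against 3.26 and 0 CPM in con-in vitro and Hspb1 at 91.5 and 48.6 CPM in con against 0 and 1.37 CPM in con-in vitro, so the counts of each came from 1 con-in vitro library. Without that library the fitted values were -13.91 for Mrps23 and -13.42 for Hspb1, which set no bound, as the remaining library is at 0. The calls of Mrps23 and Hspb1 were lost with only the 4 control libraries fitted.

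The direction of change went with gene length. Lengths and exons here are those of the gene models in the count table, not of single transcripts. Among 7533 genes averaging 10 CPM or more over the 7 other libraries, a choice that used neither control, the shortest quintile (57 to 2382 bases) had a median log2 of -0.99, with 6.43% higher and 28.3% lower. The longest quintile (7982 to 123179 bases) had a median of 0.32, with 21.1% higher and 10.4% lower. The medians rose in every step between, through -0.44, -0.16 and 0.06. The difference between the extreme quintiles was 1.32 on the log2 scale and 0.848 without con replicate 2. Spearman's rho of the fold change with length was 0.226 over these genes, which share the 4 libraries and are not replicates. Between the con replicates the same measure was -0.150 (replicate 2 minus replicate 1), and between the con-in vitro replicates 0.0446.

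Length of the last exon gave the same order, from a median log2 of -0.61 in the quintile with the shortest last exons (7 to 506 bases) to 0.39 in the quintile with the longest (2921 to 122802 bases). By level in the other libraries, the share of genes that fell went from 6.57% in the lowest quintile to 37.6% in the highest, while the share that rose lay between 12.5% and 15.6%. The 100 most abundant genes of con had a median length of 2559 bases and 6 exons. Those of con-in vitro had 6675.5 bases and 12 exons, and those of the 7 other libraries 2504 bases and 7 exons, beside 3627 bases and 8 exons over all genes tested.

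**Figure D5:**
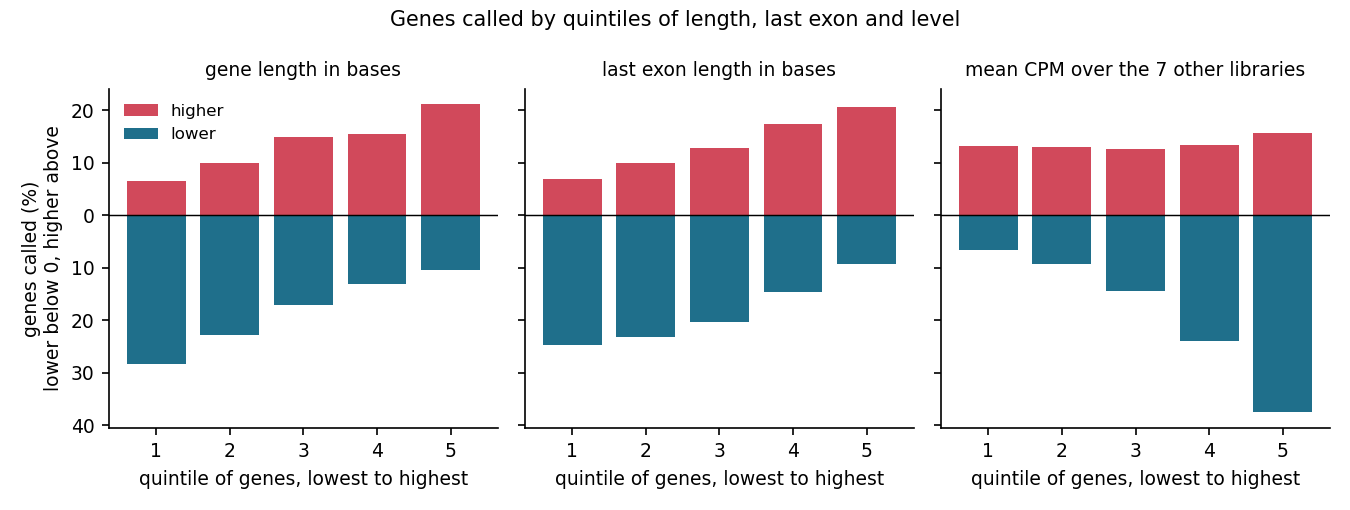
Share of genes called higher (red, above 0) and lower (blue, below 0) in con-in vitro by quintiles of gene length, of last exon length and of mean CPM in the 7 other libraries, over 7533 genes. With length the share called higher runs from 6.43% to 21.1% and the share called lower from 28.3% to 10.4%.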

How the data were processed

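Raw counts per gene were deposited by the authors for 55401 genes in 12 columns, and all 12 were matched to samples by title. Per the labels' protocols, cDNA was amplified with a full-length single-cell kit and libraries were made with a transposase kit. The submitters' processing notes name the build mm10 and, without roles, Bowtie2 2.2.5, featureCounts, deepTools 3.5.1, HISAT2, SAMtools, fastp 0.12.4, DESeq2 and Picard. CUT&Tag libraries were not analysed here.

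In R 4.3.3 with edgeR 4.0.16, genes passing edgeR's expression filter (minimum count 10) were scaled by TMM and fitted by quasi-likelihood with 1 coefficient per group over 11 libraries (5 residual degrees of freedom, biological coefficient of variation 71.9%). Of the in vivo PSMPs group, 2 columns agreed within sampling noise (chi-square per degree of freedom 0.444) and were counted as 1 library. P-values were adjusted over all 16736 genes by the Benjamini-Hochberg method at 0.05. Genes at 0 in a group were bounded against 3 counts over the group (0.0444 CPM in con, 0.427 CPM in con-in vitro). Genes with 1 to 3 counts were given a ratio with an exact 95% interval. On simulated data the procedure recovered 14 of 100 genes changed 4-fold and 65 of 100 changed 16-fold, and called 1 of 16536 unchanged genes.

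The 28 gene lists and the comparison were chosen with earlier results of these data known, so list counts are descriptions. Named genes were the 12 largest rises and falls with at least 10 CPM in the higher group, more than 3 counts in the lower and no overlap, the 6 most abundant per direction with 0 to 3 counts, the 10 most abundant per group, the 10 largest CPM differences, up to 3 called members per list and direction with its most abundant member, and a fixed set of oocyte and deacetylase genes. The rule also took genes left unreported here. Other list members named in the text were chosen after their values were seen.

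Alternatives were other filters, scalings, DESeq2 1.42.0's Wald test, other sets of fitted libraries, mitochondrially encoded genes left out, a fold threshold, thinned depth, each control library left out and a replicate block. The same replicate numbers did not show pairing, and the block is given with the alternatives.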

Additional observations from a re-analysis of the deposited data

How the results depend on the processing

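Of 144 named genes called, 76 kept their call in every setting run, and none reversed. In the fit of the 4 control libraries alone 61 lost their call, 27 of them only there. Those lost there included Smc1b, Fbxo5, Ccnb2, Ttk, Pou5f1, Ppia and Sod2. As reported, 2452 genes were higher and 1753 lower. Among the 6421 genes with at least 10 counts in each control library, 1140 were higher and 1370 lower. The share of higher genes among those called was 45.4% there, against 58.3% as reported. The number lower was 3025 with library totals. With only the 4 control libraries fitted the numbers were 465 and 371 of 11154 genes tested, a fit that also changes the filter, the scaling and the estimate of spread. Tested against a threshold of log2 1, 1156 were lower. Leaving out 1 library gave 2020 to 3725 higher and 1624 to 2813 lower, most of both without con replicate 2, where the spread of the lone library was taken from the other groups. DESeq2's Wald test gave 3353 and 2495. The difference in median log2 between the longest and the shortest quintile of genes (1.32) was 0.848 to 1.54 with 1 library left out, lowest without con replicate 2. The difference in share held by the top genes (25.0 points for 100 genes) was 12.6 points for 20 genes, 21.3 for 500 and 10.3 per kilobase. The difference in genes detected (-843.5, con-in vitro minus con) turned to 227.55 at one depth, which is set by the depth itself, and was -1458 at 10 counts or more. For other moved values the cause was not tested.

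Replicate numbers are shared between the groups, but the deviations of same-numbered libraries correlated at only 0.0566 over genes, so the numbers did not show a pairing. With a replicate block 1552 genes were higher and 1349 lower.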
